A study of Mus musculus with 194 samples.

Results

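Transposon insertions were compared between mice labelled Frontflip_GFAPCre and mice labelled Frontflip_GFAPCreNeg, with 3 animals in each group. The comparison takes in 6 of the 47 insertion tables of the series, chosen by these names alone. All 6 tables come from cortex of mice injected with adeno-associated virus (AAV) at postnatal day 0 to 1. The animals of the first group carried a GFAPCre allele and those of the second did not; sex, strain and age at collection are not given for them in the labels. The construct called Frontflip is given by its name only, and no fused transcription factor is named for these tables. Each cortex had been cut into 10 pieces whose RNA was indexed apart, and the pieces were combined into 1 table per animal. The groups most like them are GFAPCre and GFAPCreNeg, of 6 animals each, injected at the same age, without the word Frontflip in their names. Nothing in the labels says whether the animals came from separate litters, so the tests measure the spread between these animals.

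Calling cards record where a protein has touched the genome by leaving a transposon there. The piggyBac transposase used for this inserts at the bases TTAA, and without a fused transcription factor its insertions gather at open chromatin and enhancers. Self-reporting transposons carry a promoter that transcribes into the neighbouring DNA, so that an insertion can be read from RNA. GFAP promoter fragments are used to drive Cre recombinase in astrocytes, the glial cells that clear glutamate and buffer ions around synapses. Progenitor cells of the forebrain can also use these fragments, so that some neurons may carry a recombined allele in GFAP-Cre lines. Slc1a2 and Slc1a3 encode the glutamate transporters GLT-1 and GLAST of astrocytes and served as markers here. An insertion density near a gene is not its RNA level, and cell numbers and insertions per cell cannot be told apart in these bulk tissue tables.

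The Frontflip_GFAPCre animals gave far more insertions than their Cre-negative counterparts. They held 205559, 160631 and 163440 insertions in replicates 1, 2 and 3. The Frontflip_GFAPCreNeg animals held 9601, 2341 and 5665. The groups did not overlap, and the ratio of geometric means was 34.9 (n = 3 each; exact two-sided permutation test on log10 insertions, p = 0.1, the smallest p that 3 against 3 animals can give). Read support differed as well. Mean reads per insertion were 1.92, 2.01 and 1.74 in the Cre-positive animals and 2.72, 2.49 and 6.17 in the Cre-negative animals. Insertions seen with 1 read made up 58.6%, 55.8% and 63.2% of the Cre-positive tables and 47.5%, 50.4% and 38.9% of the Cre-negative tables. Read support also went with the primer. With the primer used for Frontflip_GFAPCre replicates 1 and 3, the pieces of Frontflip_GFAPCreNeg replicates 2 and 3 had 1.62 and 1.61 reads per insertion, below those animals. With other primers, the other 4 pieces of replicate 2 had 3.15 and the other 3 pieces of replicate 3 had 9.47. With the primer of Frontflip_GFAPCre replicate 2, Frontflip_GFAPCreNeg replicate 1 had 2.72. The GFAPCre animals held 600443 to 1505413 insertions and the GFAPCreNeg animals 208057 to 597230, so all 6 Frontflip tables were smaller than every table of those groups.

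**Figure D1:**
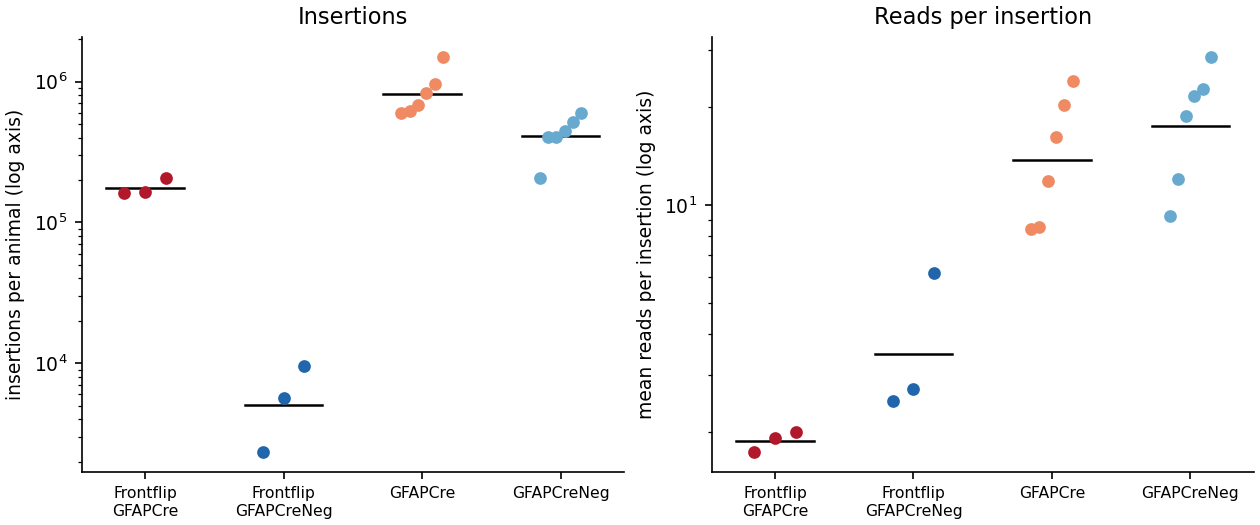
Insertions per animal (left) and mean reads per insertion (right), both on log axes, in the Frontflip animals and in the GFAPCre and GFAPCreNeg animals. Each point is 1 animal and each bar the geometric mean of a group; the 3 Frontflip_GFAPCreNeg animals, at 2341 to 9601 insertions, lie below every other animal.

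Several pieces of different animals were listed under the same sequencing index and were told apart by a primer barcode. Frontflip_GFAPCreNeg replicate 1 shared 5 indexes with Frontflip_GFAPCre replicate 1 and 5 with replicate 3. Replicate 3 shared 4 with Frontflip_GFAPCre replicate 2, and replicate 2 shared none with a Frontflip_GFAPCre animal. The positions of the Cre-negative insertions were looked up in the Cre-positive tables. Of the insertions of Frontflip_GFAPCreNeg replicate 1, 35.3%, 32.5% and 34.9% lay at positions also found in Frontflip_GFAPCre replicates 1, 2 and 3. For replicate 2 these shares were 40.9%, 41.1% and 43.3%, and for replicate 3 they were 37.2%, 33.5% and 36.6%. The highest shares belonged to replicate 2, which shared 6 indexes each with Frontflip_GFAPCreNeg replicate 3 and with 2 animals of the group labelled Syn1CreNeg, replicates 4 and 6. Replicate 1 shared 9 with Syn1CreNeg replicate 5. The part of shared indexes in these positions was not tested. The insertions at positions found in none of the other tables made up 11.6%, 9.48% and 11.1% of the Cre-negative tables and 15.1%, 14.6% and 14.1% of the Cre-positive tables.

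The insertions of each animal were then counted over classes of loci, because the Cre-negative tables are too small for single windows. Insertions inside protein-coding genes and at astrocyte loci made up a smaller share in the Cre-positive animals. Insertions in gene deserts and at neuron loci made up a larger share. In none of these 4 classes did the groups overlap. Shares near gene ends, at oligodendrocyte loci, at microglia and vascular loci and at olfactory and vomeronasal receptor genes overlapped. No class can pass a threshold of 0.05 with 3 against 3 animals: the 4 classes without overlap had p = 0.1 each in the exact two-sided permutation test, adjusted over 8 classes to 0.2.

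Inside protein-coding genes, which cover 39.1% of the genome, the Cre-positive animals had 57.2%, 57.5% and 57.8% of their insertions. The Cre-negative animals had 64.0%, 62.1% and 62.5%. The means were 57.5% ± 0.30 and 62.9% ± 1.01 (SD, n = 3), and the lowest Cre-negative animal stood above the highest Cre-positive one. Gene deserts, over 100 kb from any protein-coding gene, cover 29.2% of the genome. They took 13.5%, 13.7% and 13.4% of the Cre-positive insertions against 10.9%, 12.1% and 11.02% of the Cre-negative ones (13.5% ± 0.14 against 11.3% ± 0.66, SD, n = 3). Within 1 kb of a gene end the values were 8.02%, 8.21% and 8.03% against 8.00%, 8.20% and 8.86%. The gene-end shares were mixed between the groups, and their difference of -0.27 percentage points had p = 0.7 in the exact permutation test (adjusted p = 1). This value depends on the setting: it was -0.997 with distinct positions and -1.38 within 5 kb of a gene end (exact permutation test, p = 0.1 each), and 0.66 over reads in place of insertions (p = 0.1, exact).

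**Figure D2:**
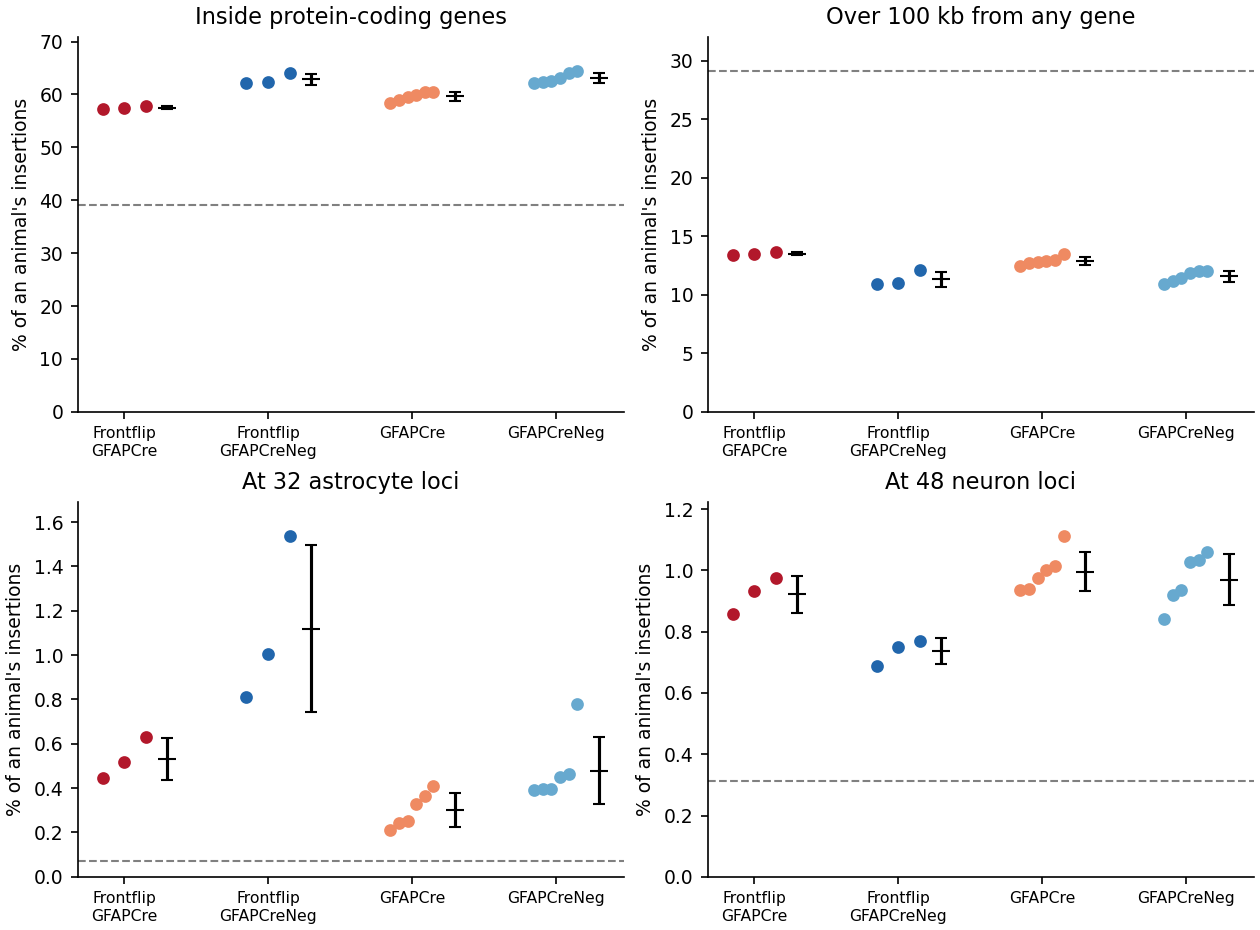
Share of each animal's insertions (percent) inside protein-coding genes, in gene deserts, at astrocyte loci and at neuron loci. Values are shown for the Frontflip groups and for the GFAPCre and GFAPCreNeg groups. Classes in which the Frontflip groups overlapped are not drawn. Points are animals, bars and error bars the group mean and SD, and the dashed line the share of genome length that the class covers; the astrocyte share is 0.531% in Frontflip_GFAPCre and 1.12% in Frontflip_GFAPCreNeg, against 0.0731% of the genome.

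Astrocyte loci were the gene bodies of 32 marker genes with 10 kb on each side. They held 913, 831 and 1034 insertions in Frontflip_GFAPCre replicates 1, 2 and 3, and 78, 36 and 57 in the Cre-negative animals. As shares these are 0.444%, 0.517% and 0.633% against 0.812%, 1.54% and 1.01%. The Wilson 95% interval of the shallowest Cre-negative animal ran from 1.11% to 2.12%, and that of the highest Cre-positive animal from 0.595% to 0.672%. Such intervals, taken over insertions, cover counting error only and leave out the spread between animals. The mean share was 0.531% ± 0.095 with Cre and 1.12% ± 0.38 without (SD, n = 3). The latter was 2.1 times the former (exact permutation test, p = 0.1, adjusted p = 0.2). Both groups stood above the share of the genome that these loci cover, on average by 7.27-fold and 15.3-fold. The spread among the Cre-negative animals was wide, and the one with the fewest insertions had the highest share. After all tables were thinned to 5840 reads the means were 0.576% ± 0.080 and 1.14% ± 0.39 (SD, n = 3), so the difference was nearly as large at equal reads. Counted over reads in place of insertions they were 0.581% and 1.35%. The difference of -0.59 percentage points was -0.38 without Frontflip_GFAPCreNeg replicate 2 and -0.37 over gene bodies without flanks.

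Of the 32 astrocyte genes, all 32 held an insertion in the Cre-positive animals and 24 in the Cre-negative animals. With each group's insertions summed, 20 genes took a larger share in the Cre-negative animals and 12 a smaller one. Slc1a3, at chr15:8634124-8710807 (mm10), held 163, 132 and 189 insertions in the Cre-positive animals and 12, 7 and 10 in the Cre-negative animals. Scaled to 1000000 insertions of the animal (CPM), this is 924 ± 202 CPM against 2002 ± 894 (SD, n = 3), with every Cre-negative animal above every Cre-positive one. Slc1a2, at chr2:102658239-102790784, held 114, 126 and 130 against 11, 6 and 13, or 712 ± 136 against 2001 ± 753 CPM. Its groups did not overlap either. Per kb of locus, Slc1a3 and Slc1a2 had 9.56 and 4.66 CPM in Cre-positive animals and 20.7 and 13.1 in Cre-negative animals. Plpp3, a lipid phosphatase gene of astrocytes, held 157, 176 and 190 against 14, 6 and 7, again without overlap of the CPM values.

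Gjb6, which encodes the astrocyte gap junction protein connexin 30, lies at chr14:57123301-57133611. It held 26, 30 and 39 insertions in the Cre-positive animals and 8, 5 and 1 in the Cre-negative animals. In CPM these are 127, 187 and 239 against 833, 2136 and 176, so 1 Cre-negative animal lies within the Cre-positive range. Cst3, the gene of the secreted protease inhibitor cystatin C, held 17, 21 and 20 against 1, 0 and 2. At this depth a single insertion in Frontflip_GFAPCreNeg replicate 2 is worth 427 CPM, and values for weakly hit genes are correspondingly coarse. Among less dense members, Aqp4, which encodes the water channel of astrocyte endfeet, held 53 insertions over the Cre-positive and 3 over the Cre-negative animals. Gfap itself held 14 and 1, and Aldh1l1, a folate enzyme gene used as a pan-astrocyte marker, held 12 and 1.

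The transposon's target bases can be seen in the promoters of these genes. RefSeq promoter windows (GRCm38.p6) were read at every insertion that fell in one, and 2980 of 2980 positions read TTAA. The letters TTAA, the same on both strands, occur in 52.4% of all 300-base promoter windows and in 48.9% of the 250-base stretches before a start site. The 250 bases before the start sites of 3 astrocyte genes and of the neuronal gene Syt1 are given 5′ to 3′ on the strand of the gene, to show how few sites a promoter offers. Capitals mark the TTAA sites that carried an insertion in at least 1 of the 6 animals.
Gjb6 (chr14:57133612-57133861, minus strand): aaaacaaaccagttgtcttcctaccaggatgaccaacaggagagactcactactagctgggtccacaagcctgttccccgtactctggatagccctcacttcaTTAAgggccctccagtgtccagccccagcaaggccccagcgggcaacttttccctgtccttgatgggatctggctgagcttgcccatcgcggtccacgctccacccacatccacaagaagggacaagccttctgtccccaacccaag
Acsbg1 (chr9:54661886-54662135, minus strand): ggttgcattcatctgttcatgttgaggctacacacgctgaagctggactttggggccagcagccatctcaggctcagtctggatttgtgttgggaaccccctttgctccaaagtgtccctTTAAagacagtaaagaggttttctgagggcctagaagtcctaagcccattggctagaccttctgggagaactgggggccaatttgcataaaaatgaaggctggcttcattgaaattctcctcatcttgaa
Slc1a3 (chr15:8710808-8711057, minus strand): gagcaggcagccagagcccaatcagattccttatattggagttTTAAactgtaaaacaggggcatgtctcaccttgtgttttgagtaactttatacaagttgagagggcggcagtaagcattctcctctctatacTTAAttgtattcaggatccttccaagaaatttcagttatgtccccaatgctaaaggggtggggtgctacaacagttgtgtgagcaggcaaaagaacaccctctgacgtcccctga
Syt1 (chr10:109009112-109009361, minus strand): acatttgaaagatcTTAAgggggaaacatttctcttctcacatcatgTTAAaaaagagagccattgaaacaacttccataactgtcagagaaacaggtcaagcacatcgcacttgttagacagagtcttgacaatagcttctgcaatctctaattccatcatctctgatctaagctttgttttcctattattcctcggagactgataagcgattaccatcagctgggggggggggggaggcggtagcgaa
The single Gjb6 site, 147 bases before the start, carried 7, 8 and 7 insertions in the Cre-positive animals and 2, 2 and 0 in the Cre-negative animals. Acsbg1, an acyl-CoA synthetase gene, has 1 such site at 130 bases, with 3, 2 and 2 against 1, 0 and 0. Of the Slc1a3 sites, the one at 115 bases carried 2, 1 and 0 insertions in Cre-positive and none in Cre-negative animals, and the one at 207 bases carried 1 insertion, in Frontflip_GFAPCreNeg replicate 3. In Syt1, the gene of a calcium sensor of synaptic vesicles, the sites at 203 and 236 bases carried 8 and 3 insertions over the Cre-positive animals and 1 and 0 over the Cre-negative animals. The Cre-negative numbers at all of these sites are too small for a comparison.

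Neuron loci were those of 48 genes in 3 lists. They held 0.976%, 0.933% and 0.857% of the insertions of the Cre-positive animals and 0.750%, 0.769% and 0.688% of those of the Cre-negative animals (0.922% ± 0.060 against 0.736% ± 0.042, SD, n = 3). The groups did not overlap (exact permutation test, p = 0.1, adjusted p = 0.2), but over reads in place of insertions the difference of 0.19 percentage points was 0.10 (p = 0.3, exact test). Of the 3 lists, the groups were apart in that of genes shared by all neurons, at 0.541%, 0.507% and 0.463% against 0.365%, 0.299% and 0.265%. This list had p = 0.1 in the exact permutation test, adjusted over 7 lists to 0.35. The excitatory list overlapped between the groups at 0.376% and 0.360% on average (p = 0.8, exact test), and so did the inhibitory list at 0.0426% and 0.0666% (p = 0.3, exact test).

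Among the densest neuron loci, Neurod6, a transcription factor gene of excitatory cortical neurons, held 68, 52 and 44 insertions in Cre-positive animals and 2, 0 and 1 in Cre-negative animals. In CPM these are 331, 324 and 269 against 208, 0 and 176, without overlap. Tbr1, a deep-layer transcription factor gene, held 70, 44 and 29 against 2, 0 and 1, with overlapping CPM values. Rorb, which marks layer 4, went the other way on average: 175, 163 and 203 insertions stood against 10, 9 and 10, or 1036 ± 196 against 2217 ± 1455 CPM (SD, n = 3), with overlap. Neurod2, a transcription factor gene of excitatory neurons, overlapped as well. The members of the neuron lists were therefore not of 1 direction. With each group's insertions summed, 12 genes of the excitatory list had a smaller share in the Cre-negative animals and 4 a larger one, and over the shared list these counts were 14 and 2. By the mean CPM of the animals the counts were 14 and 2, and 13 and 3. Summed, the inhibitory list had 8 and 8. Only 11 of 16 excitatory and 8 of 16 shared genes held any Cre-negative insertion, and a gene without one counts as smaller. Oligodendrocyte genes and genes of tissues outside the brain tilted the same way, at 13 and 4 and at 11 and 1. Astrocyte genes went the other way, at 12 and 20. These counts therefore do not set neuron genes apart.

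**Figure D3:**
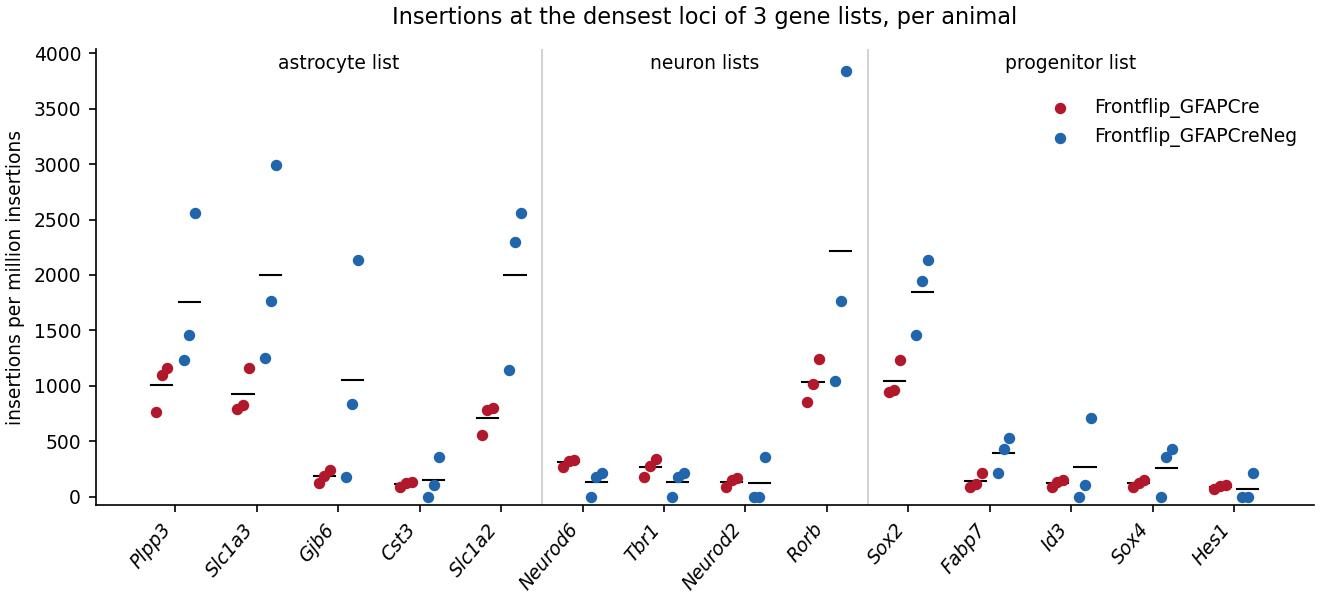
Insertions scaled to 1000000 per animal (CPM) at 5 of the densest loci of the astrocyte list, 4 of the neuron lists and 5 of the progenitor list, 1 point per animal. Slc1a3, Slc1a2, Plpp3, Sox2 and Fabp7 have every Frontflip_GFAPCreNeg animal above every Frontflip_GFAPCre animal, and Neurod6 the reverse.

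Markers of other cell types were counted in the same way. Oligodendrocyte loci (20 genes) took 0.0579%, 0.0654% and 0.0624% of the Cre-positive insertions and 0.0417%, 0.128% and 0.0353% of the Cre-negative ones, which rest on 4, 3 and 2 insertions. Olig1, a transcription factor gene of the oligodendrocyte lineage, held 18, 23 and 20 against 0, 2 and 1. Cspg4, the gene of the precursor surface protein NG2, held no Cre-negative insertion. The exact permutation test gave p = 1 for oligodendrocyte loci and for microglia and vascular loci. The latter rested on 3, 3 and 5 Cre-negative insertions, of which 7 of 11 lay at Sall1, a transcription factor gene of microglia that held 77, 55 and 93 in the Cre-positive animals. Endothelial and pericyte loci held 76 insertions over the Cre-positive animals and none in any Cre-negative animal. For Frontflip_GFAPCreNeg replicate 1, the deepest of its group, 3 insertions would be a share of 0.0313%, so an endothelial share near the 0.0122% of Frontflip_GFAPCre replicate 1 was not detectable at this depth. Olfactory and vomeronasal receptor genes, mostly silent in brain, cover 1.15% of the genome with their flanks. They took 0.109%, 0.0940% and 0.0875% of the Cre-positive insertions and 0.104%, 0 and 0.124% of the Cre-negative ones (p = 0.9, exact permutation test); 0 of 2341 insertions allows a share of up to 0.128%. The part of these other cell types in the results was not tested.

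Neural progenitor loci (17 genes) took 0.169%, 0.169% and 0.217% of the Cre-positive and 0.208%, 0.299% and 0.371% of the Cre-negative insertions, with overlap (p = 0.2, exact permutation test). Sox2, a transcription factor gene of progenitors that astrocytes keep on, held 549 of the 974 Cre-positive insertions of this list. It had 194, 154 and 201 insertions against 14, 5 and 11, or 1044 ± 161 against 1845 ± 349 CPM (SD, n = 3), without overlap. Fabp7, a lipid-binding protein gene of radial glia, held 18, 18 and 34 against 2, 1 and 3, also without overlap. Id3, Sox4 and the Notch target Hes1 overlapped.

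The densest protein-coding loci of the Cre-positive animals did not depend on any list. Sox2, with 46.5 CPM per kb in the Cre-positive animals, ranked 2 among them, and it had 82.1 in the Cre-negative animals. Zbtb18, a repressor gene of cortical neurons, held 126, 106 and 82 against 0, 0 and 1. Cpe, which encodes a prohormone-processing carboxypeptidase, held 397, 374 and 497 against 41, 20 and 22, or 2434 ± 562 against 5566 ± 2586 CPM (SD, n = 3). Ptn, the gene of the growth factor pleiotrophin, held 277, 272 and 388 against 42, 10 and 17, or 1805 ± 522 against 3883 ± 765. Cpe and Ptn were higher in CPM in every Cre-negative animal, and Zbtb18 lower. Among others of the 10 densest, the POU factor gene Pou3f3 and the predicted gene Gm46608 were higher in every Cre-negative animal, and Pou3f2, Skida1 and the nuclear receptor gene Nr2f1 overlapped.

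Single loci were tested with edgeR's quasi-likelihood test over 1286 gene loci with enough insertions, with Benjamini-Hochberg adjustment over all of them. With TMM scaling 89 loci passed an adjusted p of 0.05 (6.92% of those tested). Of these, 64 were higher (4.98%) and 25 lower (1.94%) in Frontflip_GFAPCre. This split depends on the scaling: with library totals, 14 loci were higher (1.09%) and 60 lower (4.67%), because the scaling moved the median log2 difference of all loci by 0.50, from -0.07 to 0.44. None passed in opposite directions, and 39 loci passed under both scalings (3.03%), 14 of them higher and 25 lower. Of all loci tested, 57 held no Cre-negative insertion. TMM factors at gene loci were uneven: Frontflip_GFAPCreNeg replicate 2, the smallest table, had 1.87. Replicates 1 and 3 of its group had 0.992 and 1.06, and the Cre-positive animals 0.794, 0.794 and 0.806. Over 5 Mb bins the factor of Frontflip_GFAPCreNeg replicate 2 was 0.955. The part of this factor in the split was not tested apart.

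Only 9 of the 32 astrocyte loci were deep enough to be tested, and 1 of them passed, against 6.92% of all loci: Gjb6, lower in the Cre-positive animals by 1.62 ± 0.54 on the log2 scale (± SE; edgeR, adjusted p = 0.0427). With library totals its adjusted p was 0.00322 and Slc1a2 passed too (log2 difference -1.30, adjusted p = 0.00670, against -0.77 and adjusted p = 0.175 with TMM). The median log2 difference of the 9 loci was -0.34, against 0.44 over all loci (-0.87 against -0.07 with library totals). In 4 of the 9, namely Slc1a2, Slc1a3, Plpp3 and F3, the coagulation tissue factor gene, every Cre-negative animal had a higher CPM than every Cre-positive one, which was so for 15.2% of all loci tested.

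Of the 48 neuron loci 20 were tested and 3 passed, all higher in Cre-positive animals, beside 4.98% of all loci. Celf4, an RNA-binding protein gene of the shared neuron list, held 717 CPM on average against 198 (log2 difference 1.84 ± 0.61 SE, edgeR, adjusted p = 0.0410). Elavl4, the gene of the neuronal RNA-binding protein HuD at chr4:110203737-110351939, held 88, 61 and 57 insertions and none in any Cre-negative animal. It was at least 2.28-fold higher, taking 3 insertions over the Cre-negative group as the floor. It entered the test through the Cre-positive animals alone. With library totals Celf4 did not pass (edgeR, adjusted p = 0.164). The median log2 difference of the 20 loci was 0.99, or 0.68 with the 3 loci that lack Cre-negative insertions put at their floor, against 0.44 and 0.34 over all loci. With library totals the floor-based values were 0.26 and -0.11. In 6 loci of the shared list and 3 of the excitatory list every Cre-positive animal was above every Cre-negative one, which was so for 19.1% of all loci tested. Among these, Stmn2, Elavl4 and Fezf2 held no Cre-negative insertion and entered the test through the Cre-positive animals alone. Their place in this count is no support for a difference, and the 19.1% takes in such loci too.

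**Figure D4:**
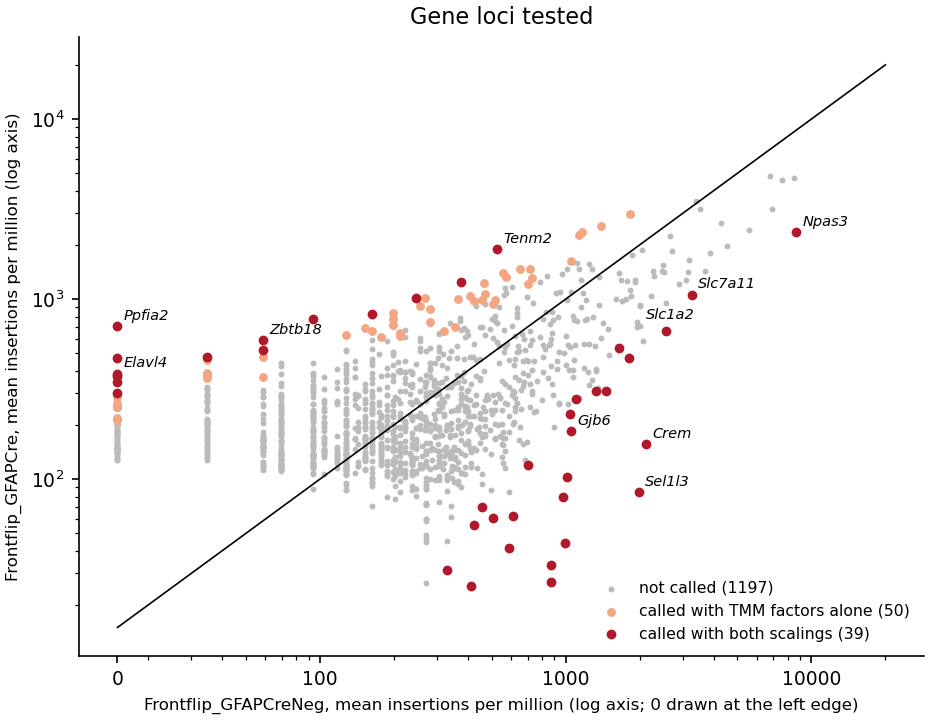
Mean CPM at each of the 1286 tested gene loci in Frontflip_GFAPCreNeg (horizontal) and Frontflip_GFAPCre (vertical), both log axes, with loci at 0 drawn at the left edge. The diagonal marks equal values; coloured points are the 64 loci higher and 25 lower in Frontflip_GFAPCre with TMM scaling.

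By fitted log2 difference, the 3 highest loci held no Cre-negative insertion, as did 15 of the 64 higher loci. Such loci entered the test through the Cre-positive animals alone, so their calls are no support for a difference, and a fit against 0 gives no order among loci. Ppfia2, the gene of a presynaptic scaffold protein (liprin-alpha), held 176, 117 and 89 insertions in the Cre-positive animals, at least 4.23-fold above the floor. Tenm4, a teneurin adhesion gene, held 100, 80 and 71, at least 2.78-fold, and Elavl4 was the third. The loci with the lowest differences rested on single positions. Sel1l3 held 22, 11 and 13 insertions against 9, 8 and 9, and 25 of the 26 Cre-negative insertions sat at 1 TTAA. In Aplf 12 of 12 and in Tm9sf4 9 of 9 did so. When each position was counted once per animal, 12 of the 25 lower loci still passed, and 64 of the 64 higher ones. Npas3, a transcription factor gene expressed in astrocytes, was picked after the values were seen as the lower locus with many insertions: 401, 351 and 481 against 73, 27 and 39, a log2 difference of -1.22 ± 0.23 (SE; edgeR, adjusted p = 5.50e-05). It passed with library totals and with positions counted once as well.

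In bins of 5 Mb, 26 of 522 passed (4.98%; edgeR with TMM), 5 of them higher (0.958%) and 21 lower (4.02%) in Frontflip_GFAPCre, and with library totals 8 were higher (1.53%) and 17 lower (3.26%). Under both scalings 22 passed in the same direction (4.21%). The number rests on Frontflip_GFAPCreNeg replicate 3: without it 1 bin passed, against 11 without replicate 2 and 16 without replicate 1, and 63 without Frontflip_GFAPCre replicate 3. The highest was chrX:160000001-165000000 with 182, 141 and 125 insertions against 2, 0 and 1 (adjusted p = 0.0280, edgeR). Next came chr4:110000001-115000000, which holds Elavl4 (log2 difference 1.95 ± 0.56 SE, adjusted p = 0.0469, edgeR), and chr15:20000001-25000000 (1.75 ± 0.44, adjusted p = 0.0218). With DESeq2 in place of edgeR the bins on chrX and chr4 did not pass (adjusted p = 0.0852 each), and the bin on chr15 did (adjusted p = 0.0360). The lowest was chr18:1-5000000, with 69, 57 and 66 against 10, 10 and 7 insertions (log2 difference -2.18 ± 0.42 SE, edgeR, adjusted p = 0.00381). There 25 of the 27 Cre-negative insertions sat at 1 position, and with positions counted once the difference was 0.04 (adjusted p = 0.985). In chr2:1-5000000 the difference was -1.21 ± 0.24 (adjusted p = 0.00438, edgeR), and the most-hit position held 3 of the 75 Cre-negative insertions. In chr13:35000001-40000000 it was -1.19 ± 0.27 (adjusted p = 0.0125, edgeR). For gene loci the count of 89 fell to 26 without Frontflip_GFAPCreNeg replicate 3, to 33 without Frontflip_GFAPCre replicate 1 and to 36 without its replicate 2.

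The positions behind these loci recurred across animals. The one on chromosome 18, at 3340630, lies 2857 bases from Crem and carried 8, 9 and 6 insertions in the Cre-positive and 10, 10 and 5 in the Cre-negative animals, none of them on the plus strand. The Sel1l3 position, chr5:53115395, carried 9, 5 and 6 against 9, 8 and 8, also on the minus strand only. An animal can record at most 10 insertions per strand at a position. Positions with the most insertions in the Cre-positive animals were used on both strands. At chr7:73608589, 66843 bases from Chd2, there were 20, 18 and 19 insertions against 8, 3 and 6, with 10, 8 and 9 and 3, 1 and 4 of them on the plus strand. Insertions at positions hit more than once in an animal made up 28.8%, 26.5% and 29.3% of the Cre-positive tables and 7.21%, 6.24% and 5.47% of the Cre-negative tables. This share also goes with table size. Syn1CreNeg replicates 1, 2 and 3 had 24.7%, 22.5% and 21.7% with 107483, 97519 and 119059 insertions. The GFAPCre animals had 39.3% to 51.6% with 600443 to 1505413. The part of table size in the difference was not tested.

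Distance from transcription start sites was profiled on 21045 RefSeq start sites of all chromosomes used other than 18. Within 1 kb of a start, a window covering 1.45% of the genome, the Cre-positive animals had 6.07%, 6.26% and 6.39% of their insertions and the Cre-negative animals 7.06%, 7.04% and 7.48% (6.24% ± 0.16 against 7.19% ± 0.25, SD, n = 3). The groups did not overlap (exact permutation test, p = 0.1, the smallest possible). Within 10 kb the shares were 21.0%, 21.1% and 21.9% against 24.0%, 23.8% and 25.0%, again without overlap. Both sides of the start were then read apart, without a test of their difference. In the first 2 kb inside the gene the density over that expected from length was 2.49, 2.63 and 2.72-fold in the Cre-positive and 3.38, 3.55 and 3.79-fold in the Cre-negative animals. In the 2 kb upstream it was 4.14, 4.09 and 4.29-fold against 4.20, 4.36 and 4.84-fold, values that overlapped.

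**Figure D5:**
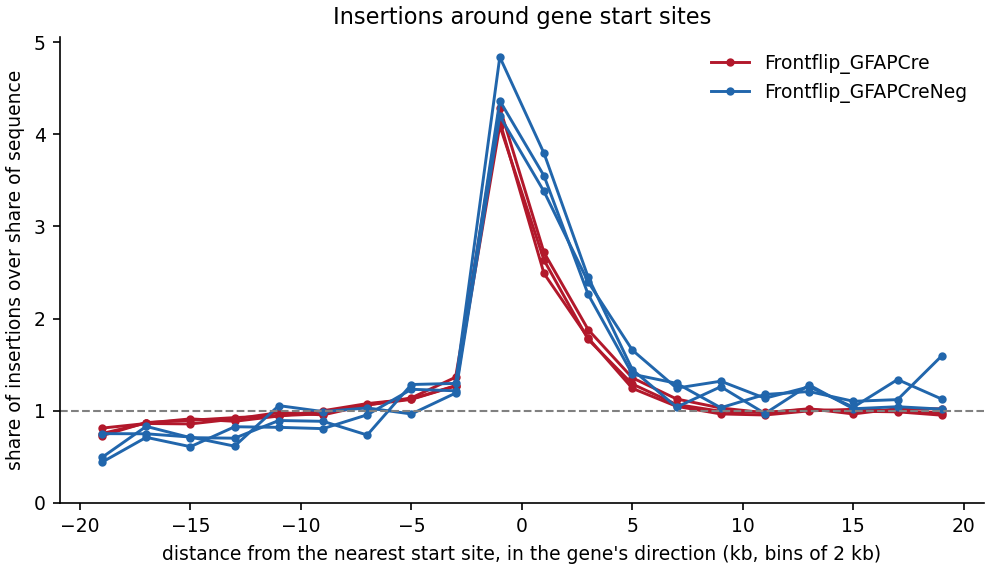
Insertion density around transcription start sites in bins of 2 kb, as fold over that expected from length, against distance from the nearest start in the gene's direction. Lines are the 6 Frontflip animals; in the first 2 kb downstream the Frontflip_GFAPCreNeg animals lie at 3.38 to 3.79 and the Frontflip_GFAPCre animals at 2.49 to 2.72.

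Genic insertions were also split by gene length. Genes of 50 to 200 kb took 19.2% ± 0.47 of the Cre-positive and 23.5% ± 0.83 of the Cre-negative insertions (SD, n = 3), without overlap. Genes under 50 kb took 8.50% ± 0.13 and 10.1% ± 0.25, also without overlap. Genes of 200 to 500 kb (15.4% ± 0.12 and 15.7% ± 0.56) and of 500 kb or more (14.9% ± 0.18 and 14.1% ± 1.04) overlapped between the groups. Adjusted over the 4 length classes, the exact permutation test gave 0.2 for both shorter classes, 0.9 and 0.267 for the longer ones. By chromosome, 6, 10 and 11 took a larger share in every Cre-positive animal and 16, 17, 18 and 19 a smaller one. None of the 20 chromosomes had an adjusted p below 0.286 (exact permutation test).

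The Frontflip animals were set against the groups most like them. Mean shares of the GFAPCre and GFAPCreNeg animals, in the classes without overlap above, were 59.7% against 63.1% inside genes, 12.9% against 11.6% in deserts, 0.301% against 0.479% at astrocyte loci and 0.997% against 0.970% at neuron loci (n = 6). The neuron difference rests on GFAPCreNeg replicate 6, at 0.843%: without it the GFAPCreNeg mean was 0.996%. The test of whether the Cre contrast differed between Frontflip and the other animals passed for none of 9 measures. It gave a difference of 1.24 on the log10 scale for insertions (exact permutation within Cre status, p = 0.0845, adjusted p = 0.269) and of -0.41 percentage points for astrocyte loci (p = 0.169, adjusted p = 0.305).

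Within Cre-negative animals, the astrocyte share of the Frontflip group was higher than that of GFAPCreNeg, whose values ran from 0.391% through a median of 0.425% to 0.778%. The difference of means was 0.64 percentage points without overlap (exact permutation test of 3 against 6 animals, p = 0.0119, the smallest possible, adjusted p = 0.0476). The neuron share was lower by -0.23 percentage points (p = 0.0119, exact, adjusted p = 0.0476), also without overlap. Within Cre-positive animals, the astrocyte share of Frontflip_GFAPCre was higher by 0.23 percentage points than that of GFAPCre, which ran from 0.209% through 0.291% to 0.410%. Its genic share differed by -2.13 percentage points, its receptor gene share by -0.031 and its microglia and vascular share by 0.020 (exact permutation tests, adjusted p = 0.0318, 0.0318 and 0.0476; 0.0318 for astrocyte loci). Depth moved with all of these, as the Frontflip tables were the smaller ones. With all tables thinned to the reads of the shallowest, the astrocyte difference was 0.60 percentage points between the Cre-negative groups and 0.19 between the Cre-positive groups, and none of the 6 calls passed (adjusted p = 0.19 and 0.0635 for these). Leaving out 1 animal ended the calls in most cases, where fewer splits also raise the smallest possible p.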

How the data were processed

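Insertions were read from cortex RNA with self-reporting transposons. The deposited tables count insertions: 1 line per TTAA position, strand and barcode, with its number of reads, made by the authors from 10 pieces per animal. Per the submitters' processing notes, the build was mm10 and the tools Novoalign and Bowtie2; versions and settings are not given in the sources used here. Genes were 21631 protein-coding genes of RefSeq GRCm38.p6 on chromosomes 1 to 19 and X, and a locus is a gene body with 10 kb on each side. Class shares per animal were compared with exact two-sided permutation tests (20 splits of 3 against 3, 84 of 3 against 6) and Benjamini-Hochberg adjustment. Counts per 5 Mb bin and gene locus were tested with edgeR 4.0.16 (quasi-likelihood, TMM, filterByExpr, adjusted p under 0.05), with DESeq2 1.42.0 as an alternative. On data simulated for these bins and loci, 98% and 45% of 4-fold changes were recovered, with 3 false calls each. The simulated counts had 1 common dispersion and no positions hit many times, so these rates may not hold for the real tables. Library depth ran from 2341 to 205559 insertions, so 1 insertion is 427 CPM (insertions per 1000000 of an animal's total) in the smallest table. Named genes were Slc1a2, Slc1a3, the 5 genes of each list and the 10 protein-coding loci with the most insertions per kb in Frontflip_GFAPCre, and the 3 highest and 3 lowest bins and loci that passed; Aqp4, Gfap, Aldh1l1, Celf4, Npas3 and the promoter examples were added. A few genes that this rule names are not reported here. The animals, gene lists and classes were chosen with earlier results of these data known.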

Additional observations from a re-analysis of the deposited data

Results flagged for a closer look

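In the GFAPCreNeg group, used here only for comparison, replicate 6 stood apart from the other 5 animals in the share of insertions at astrocyte loci, 0.7782%, where the others lay between 0.391% and 0.463%. The same animal stood apart in log10 insertions, at 5.318 (208057 insertions), the lowest of its group. It was counted in the comparison with Frontflip_GFAPCreNeg, where the astrocyte difference was 0.64 percentage points with it and 0.70 without it. Each was found by the gap to the nearest animal over the whole range of the group (Dixon's critical value for 6 animals); 18 groups of values were checked, and chance gives about 1 in 20. The Frontflip groups, with 3 animals each, are too small for this check.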

How the results depend on the processing

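Under the alternatives tried for each, the shares inside genes (-6.31 to -4.30 percentage points, 11 of 11), in gene deserts (0.806 to 3.22, 12 of 12), at astrocyte loci (-0.768 to -0.375, 12 of 12) and at neuron loci (0.103 to 0.219, 12 of 12) and the ratio of insertions (18.9 to 48.2, 10 of 10) kept their direction. Some of these alternatives could not have turned it. Where the groups do not overlap, leaving out 1 animal keeps the sign, and the replicate block gives the same mean difference. Those runs are therefore no support for the direction. With 3 animals a group, the exact permutation p was 0.1 at best under any of the alternatives. Shares without a clear direction turned, and the cause was not tested. With 2 or more reads per insertion the Cre-positive minus Cre-negative difference in percentage points was 0.0132 near gene ends, 0.0156 at oligodendrocyte and 0.0375 at microglia and vascular loci. Over reads in place of insertions, chosen after seeing the data, these were 0.661, 0.0206 and 0.0490. Without flanks they were 0.0151 at oligodendrocyte and 0.00295 at microglia and vascular loci, and with reads thinned, also chosen after seeing the data, the latter was 0.0145. Leaving out 1 animal gave -0.0230 to 0.0234 at oligodendrocyte loci, -0.0312 to 0.0173 at microglia and vascular loci and -0.0170 to 0.0448 at receptor genes, with the sign turned without Frontflip_GFAPCreNeg replicate 2 in each.

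Of Frontflip_GFAPCreNeg minus GFAPCreNeg differences, thinned reads turned those inside genes (0.686), near gene ends (-0.100) and at oligodendrocyte loci (-0.0504). Leaving out 1 animal gave -0.863 to 0.0873 inside genes, -0.0196 to 0.0269 at oligodendrocyte loci, -0.00557 to 0.0429 at microglia and vascular loci and -0.0490 to 0.0128 at receptor genes. Of Frontflip_GFAPCre minus GFAPCre differences, distinct positions turned deserts (-0.392) and neuron loci (0.0184), and thinned reads turned gene ends (-0.0313).

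The counts of bins and loci that passed moved more, from 26 and 89. Distinct positions gave 60 bins and 237 loci, 2 Mb bins gave 49, gene bodies without flanks gave 141 loci, and no filter gave 281 loci. Thinned to the shallowest table, 0 of 25 bins (edgeR; 5 at an unadjusted p under 0.05) and 1 of 5 loci passed, so fewer features could be tested. Leaving out 1 animal gave 1 to 63 bins and 26 to 86 loci. DESeq2 gave 29 bins and 84 loci. With the replicate number as a replicate block, 46 bins and 31 loci passed; same-numbered animals correlated over bins at 0.16, -0.14 and -0.13, so the numbers do not pair them, and the block left the shares and the ratio of insertions as they were.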
